A study of Arabis alpina with 2 samples.

Results

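The sites described here are the single-base variants of chromosome 8 of the perennial crucifer Arabis alpina that were fixed in both sequenced libraries. A site was taken when both variant lists held it with the same base, at an allele frequency of 0.9 or more, a coverage of at most 100 reads and a variant quality of at least 25 in each library. Allele frequency is the share of reads with the changed base, and variant quality is the caller's score for a site. The rule took 335 of the 9753 sites that the lists shared over the whole genome, and 335 of the 1299 that they shared on chromosome 8. The sites were thus chosen by chromosome, allele frequency, coverage and quality, which are given as descriptions. The rule did not use the kind of base change or the position within the chromosome. But the sites and comparisons were chosen with earlier results of these data known. The p-values for the kind of change are thus not those of contrasts set beforehand.

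Genomic DNA came from flower buds of plants of the Pajares background, grown in long days, with 1 library in each of 2 groups. The first was a pool of eop055 BC1F2 plants: after selfing, the mutant line had been crossed back to the pep1-1 line it came from, the offspring were selfed, and plants with the mutant phenotype were taken. The second was pep1-1 itself, so both groups carry the pep1-1 background. How many plants went into a library was not stated in the labels. With no replicate, each test compares these lists of sites and not the genotypes at large, and linked sites are not independent, so the p-values are too small. No library of unmutagenised Pajares was analysed here, so changes made on the way to pep1-1 and differences between Pajares plants and the assembly cannot be told apart.

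The pep1-1 mutant flowers without the prolonged cold that Pajares needs, because it lacks a working PEP1, a floral repressor related to FLC of Arabidopsis. Alkylating mutagens such as ethyl methanesulfonate, widely used to make plant mutants, modify guanine so that it pairs with thymine at replication. A damaged guanine on the strand written in the reference is read as a G-to-A change, and one on the opposite strand as a C-to-T change. In a mapping population made by backcrossing to the progenitor, changes that the progenitor already carries do not segregate, whereas those added by the later mutagenesis do. The labels do not name the mutagen.

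The lists held 14923 sites in the eop055 pool and 14029 in pep1-1, with median coverages of 106 and 100 reads. Of these, 1986 and 1872 lay on chromosome 8. Positions count from 1 on the authors' chromosomes, a build that the labels and headers leave unnamed. The names of both lists end in the same version-like tag, but what it refers to is not given. Genes, exons and flanking sequence at these positions were therefore not analysed here, and a site is named by its reference base, position and changed base. All 95% intervals on shares are Wilson intervals and cover counting error only.

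Nearly all fixed sites of chromosome 8 were C-to-T changes. There were 302 of them among the 335, or 90.1% (86.5 to 92.9%). The mirror change on the other strand, G-to-A, was found at 10 sites, or 2.99% (1.63 to 5.41%). The remaining 23 sites comprised 5 A-to-G, 4 A-to-T, 3 G-to-C, 3 T-to-C and 2 each of A-to-C, G-to-T, T-to-A and T-to-G changes. No C-to-A and no C-to-G change was among them, where 0 of 335 allows a share of up to 0.896% by the limit of 3 counts, and 1.13% by the Wilson interval. Together C-to-T and G-to-A made up 312 sites, 93.1% (89.9 to 95.4%), and within those 312 the C-to-T share was 96.8% (94.2 to 98.2%).

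The sites listed in the pool alone had the opposite change. Under the same quality minimum and coverage maximum, 345 sites of chromosome 8 were listed in the eop055 pool and unlisted in pep1-1. Of these, 198 were G-to-A and 7 C-to-T, a C-to-T share of 3.41% (1.66 to 6.88%) against the 96.8% of the fixed sites. The odds ratio was 807 (296 to 2607 at 95%; two-sided Fisher's exact test, Benjamini-Hochberg adjusted over 4 list comparisons, p = 3.04e-119). Over the alternative settings it ran from 163, with no quality minimum, to 1554, without fixed sites within 100 bases of another listed variant. So among C-to-T and G-to-A sites, the fixed and the pool-only ones of this chromosome were almost entirely of mirror types, and this split held in every 5 Mb bin. A further 140 pool-only sites were of neither type.

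**Figure D1:**
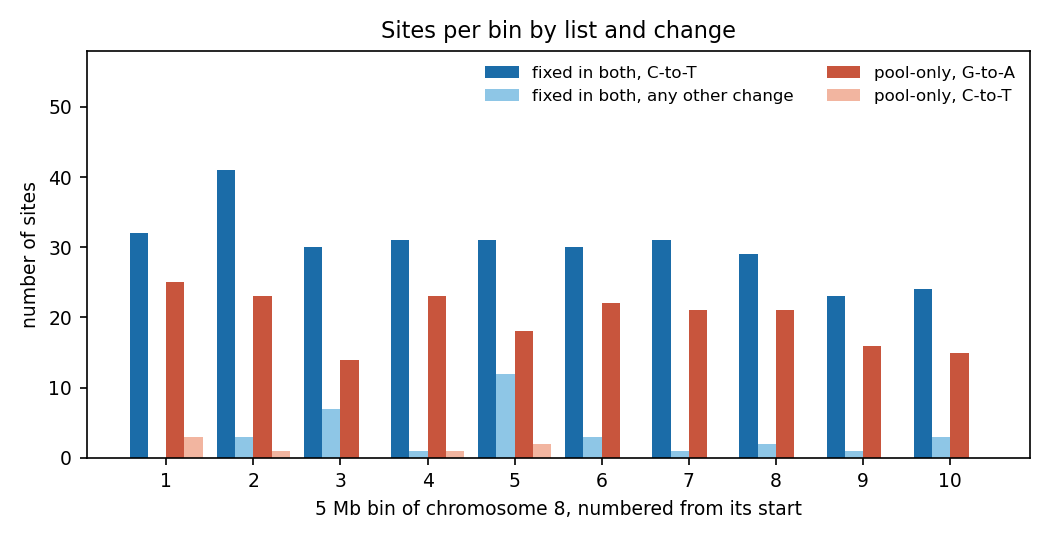
Number of sites (y axis) in each 5 Mb bin of chromosome 8 (x axis), with dark blue bars for C-to-T sites fixed in both libraries, light blue bars for all other fixed sites, red bars for pool-only G-to-A sites and pink bars for pool-only C-to-T sites. Dark blue bars, from 23 to 41 sites, exceed the red ones, from 14 to 25, in each of the 10 bins, and the pink bars reach at most 3.

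The joint share of C-to-T and G-to-A changes also differed between the lists. It was 93.1% of the fixed sites and 59.4% of the pool-only sites (54.2 to 64.5%), an odds ratio of 9.23 (5.68 to 15.6; Fisher's exact test, adjusted p = 1.87e-26). The pool-only remainder was led by 101 G-to-T and C-to-A sites at a median allele frequency of 0.244, none of them at 0.9 or more. This difference depended on the pool-only sites under 0.9, which were left out together, whatever their type. The 101 sites were not left out alone. Among the 43 pool-only sites at 0.9 or more, 41 were C-to-T or G-to-A (95.3%, 84.5 to 98.7%). Against them the odds ratio was 0.662 (0.0731 to 2.85; Fisher's exact test, adjusted p = 0.754), so the direction turned and the call ended. The mirror split stayed there, with 39 sites G-to-A, 2 sites C-to-T and an odds ratio of 545 (117 to 5268; Fisher's exact test, adjusted p = 9.89e-40).

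The 2 fixed C-to-T changes among the pool-only sites were named after their values were seen. C1121957T was carried by all 54 reads of the pool and C21542878T by all 65, both with a variant quality of 214. Neither position was listed in pep1-1, whose depth there is unknown. The other 5 pool-only C-to-T sites stood between 0.222 and 0.375. These 2 sites were picked for their type and allele frequency, so nothing is read from their likeness to the 302 in these. Unlike the 302, they were unlisted in pep1-1.

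Fixed sites elsewhere in the genome, counted together, were more often G-to-A than C-to-T. The same rule outside chromosome 8 took 444 sites, of which 97 were C-to-T and 213 G-to-A, a C-to-T share of 31.3% (26.4 to 36.7%). The odds ratio against them was 65.8 (33.3 to 145; Fisher's exact test, adjusted p = 1.71e-74). Chromosome 2 held 168 of those G-to-A sites and 50 of the C-to-T sites, and without it the odds ratio was 28.5 (13.1 to 68.0). The C-to-T share of fixed sites was 22.9% on chromosome 2 (17.9 to 29.0%) and 30% on chromosome 7 (16.7 to 47.9%). C-to-T was the majority on chromosome 4, at 20 of 33 sites (60.6%, 43.7 to 75.3%), and on unplaced sequences, at 12 of 19 (63.2%, 41.0 to 80.9%). Chromosomes 1, 3 and 6 had 1 of 3, 2 of 2 and 3 of 5. Chromosome 8 had the most fixed sites of any chromosome, 335 against 237 on chromosome 2, 57 on chromosome 4 and 44 on chromosome 7. Chromosomes 1, 3, 5 and 6 had 9, 4, 8 and 17, and chromosome 5 had neither a C-to-T nor a G-to-A site among its 8. Among pool-only sites, a C-to-T share at or below 5% was found on chromosome 3, at 4.58% (2.23 to 9.14%), and chromosome 8. It was 81.0% on chromosome 1 (73.2 to 86.9%) and 59.8% on chromosome 5 (53.2 to 66.1%).

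**Figure D2:**
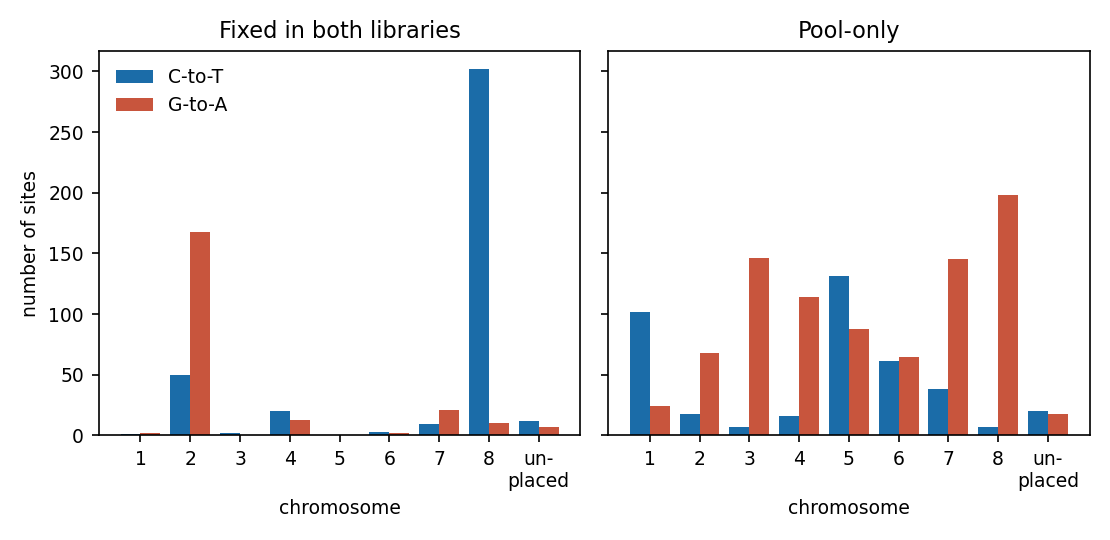
Number of C-to-T (blue) and G-to-A (red) sites per chromosome and on unplaced sequences, for sites fixed in both libraries (left) and pool-only sites (right) under the same quality minimum and coverage maximum. Chromosome 8 has 302 blue against 10 red on the left and 7 blue against 198 red on the right.

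On chromosome 8 itself, shared sites that were not fixed had another make-up. Under the same quality and coverage limits 91 shared sites missed the allele frequency of 0.9 in either library, with a median of 0.4 in the pool and 0.438 in pep1-1. C-to-T and G-to-A changes made up 29 of them, or 31.9% (23.2 to 42.0%), against 93.1% of the fixed sites. The odds ratio was 28.6 (15.1 to 56.1; Fisher's exact test, adjusted p = 1.03e-32). Their coverage had a median of 53 pool reads and 55 pep1-1 reads, against 64 and 61 at the fixed sites. Another 46 shared sites were fixed in both libraries but exceeded 100 reads in at least 1 of them, and only 8 of those, 4 C-to-T and 4 G-to-A, were of these types (17.4%, 9.09 to 30.7%). A-to-G and T-to-C changes led there, with 14 and 13 sites. A further 20 fixed sites failed on quality alone and 1 on both limits, which with the 335 accounts for the 402 shared sites at 0.9 or more in both libraries.

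The fixed C-to-T sites spanned the chromosome. The first, C220858T, was carried by 79 of 79 reads in the pool and 87 of 87 in pep1-1. The last, C48363582T, was carried by 71 of 71 and 68 of 68 reads. They lay 48.1 Mb apart, which gives 6.27 C-to-T sites per Mb. Listed sites of either library went on for 163 kb before the first and 1421 kb after the last. These stretches held 2 and 5 pool-only G-to-A sites, but 0 and 4 shared sites of any depth.

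No bin lacked them. In successive 5 Mb bins from the start of the chromosome there were 32, 41, 30, 31, 31, 30, 31, 29, 23 and 24 C-to-T sites. That is 8.2 per Mb between 5 and 10 Mb, the highest, and 4.6 per Mb between 40 and 45 Mb, the lowest. Pool-only G-to-A sites numbered 25, 23, 14, 23, 18, 22, 21, 21, 16 and 15 in the same bins. C-to-T sites were the majority of fixed sites in 10 of 10 bins, and in 25 of 25 bins of 2 Mb. In the 2 Mb bins they outnumbered pool-only G-to-A sites in 21 of 25.

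Sites of the 2 mirror types were interleaved rather than separated into blocks. In the joint order of 302 fixed C-to-T and 198 pool-only G-to-A sites, the type switched at 248 of 499 neighbouring pairs. The longest stretches were 11 fixed sites with no pool-only G-to-A between them and 5 pool-only sites with no fixed C-to-T between them. The median distance from a fixed C-to-T site to the nearest pool-only G-to-A site was 80.6 kb, and 62.8 kb the other way. The closest pair, named after its values were seen, was C6406392T and G6406568A, 176 bases apart. Of the 198 pool-only sites, 130 had a fixed C-to-T site within 100 kb.

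Spacing between neighbouring fixed sites had a median of 89.5 kb (95% interval from order statistics 77.4 to 110 kb; interquartile range 36.1 to 208 kb). For C-to-T sites alone the median was 108 kb (89.6 to 123 kb), with a mean of 160 kb and a standard deviation 1.02 times the mean. Their longest spacing was 1087 kb, from C23237892T to C24324694T, named after its value was seen. The only fixed sites in it that passed the coverage and quality limits were T23631298C and A23631299G. Pool-only G-to-A sites lay farther apart, at a median of 181 kb (150 to 214 kb), with a standard deviation 0.933 times the mean. The difference between lists follows their numbers of sites and was not tested. Among the 334 spacings of fixed sites, 13 were within 1 kb and 10 were 500 kb or more.

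**Figure D3:**
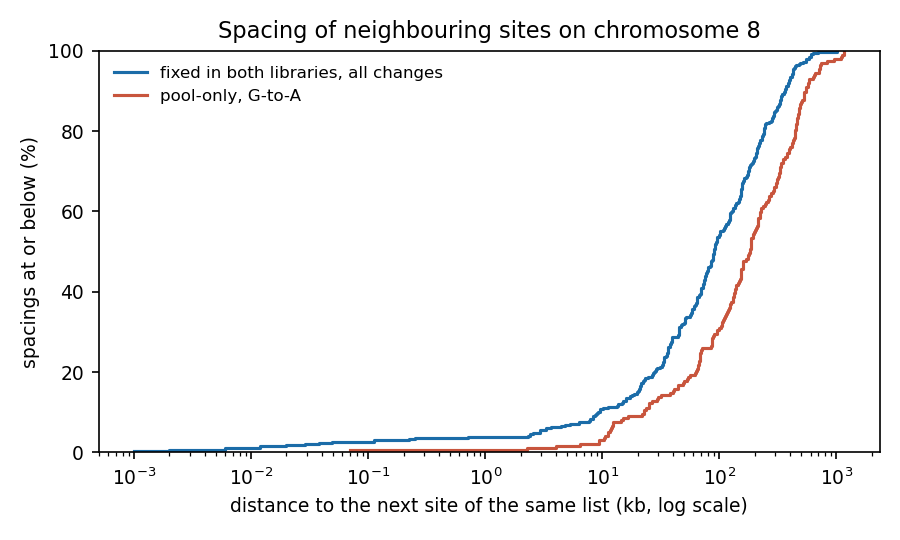
Percent of spacings (y axis) at or below a distance to the next site of the same list (x axis, kb, log scale), for all sites fixed in both libraries (blue) and pool-only G-to-A sites (red). The medians are 89.5 and 181 kb, and the blue curve alone has a tail of spacings under 0.05 kb.

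The longest gap between fixed sites of any type ran between C15718999T and C16736637T, 1018 kb. Both bounding sites were carried by every read, 45 of 45 and 56 of 56 in the pool and 74 of 74 and 40 of 40 in pep1-1. The gap was not empty of variants. It held 5 pool-only G-to-A sites at allele frequencies from 0.672 to 0.939 and 41 shared sites, 2 of them fixed, with a median of 114 pool reads and 125 pep1-1 reads. Only 1 of the 41 was within the coverage and quality limits.

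The next 4 gaps were shorter. From A23631299G to C24324694T there were 693 kb, with 2 pool-only G-to-A sites and 73 shared sites at a median coverage of 127 and 133 reads, 6 of them within the limits. From C30749639T to C31375936T there were 626 kb with a single pool-only G-to-A site, at 0.875, and a single shared site. From C22290668T to C22901734T there were 611 kb, and from T10490693C to C11094421T 604 kb, each with 1 pool-only G-to-A site and 8 shared sites. Shared sites at 0.9 or more in both libraries, but outside the coverage or quality limits, numbered 3 in the 604 kb gap. There was 1 in the 693 kb gap, and there were 0 in the 626 kb and 611 kb gaps. All 5 gaps thus held pool-only G-to-A sites, whose allele frequencies ran from 0.672 to 0.939. Over their whole span such sites numbered 3.98 per Mb, and the 626, 611 and 604 kb gaps held only 1 each. Whether the gaps held fewer of them than other stretches was not tested. Whether uneven mapping or calling set these gaps was not tested.

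In the order of positions the C-to-T sites formed 25 runs, broken by 24 interruptions, 19 of which were single sites. The median run was 13 sites, and 15 runs had 10 or more. The longest held 39 C-to-T sites over 5.12 Mb, from C220858T to C5339883T, and so took in every fixed site up to position 5339883. With only C-to-T and G-to-A sites in the order, the longest run was 111 C-to-T sites over 19.1 Mb, from C29224432T to the last fixed site. The 10 G-to-A sites lay between positions 5397160 and 29043168, and no G-to-A site that passed all limits was found beyond. G33654364A, named after its values were seen, lay beyond, at 0.947 in the pool and 0.971 in pep1-1. It missed only the quality minimum, with 15.6 in the pool. So this absence and the run of 111 hold under the quality and coverage limits only.

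The G-to-A sites were of lower depth than the C-to-T sites. Their coverage had a median of 49.5 pool reads and 42.5 pep1-1 reads, against 65 and 62 at C-to-T sites. Carried by every read in both libraries were G5397160A, with 46 pool and 68 pep1-1 reads, G11116006A with 54 and 47, and G14993991A with 58 and 63. The same held for G17849510A with 63 and 69 reads, and G26222203A with 53 and 28. These 5 stood alone, each more than 2 kb from its neighbours among the fixed sites.

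The other 5 G-to-A sites had close neighbours or fewer reads. G21640992A (28 pool and 32 pep1-1 reads) and G21641221A (26 and 32) had the change in every read, at 6 and 2 bases from another fixed site. G12971147A, with 65 of 66 and 38 of 39 reads, was 49 bases from T12971098G. G21680706A, with 29 of 30 and 37 of 38 reads, was 29 bases from A21680735C. G29043168A had 32 of 32 pool reads and 44 of 46 pep1-1 reads. So 4 of the 10 G-to-A sites, but 5 of the 302 C-to-T sites, lay within 1 kb of another fixed site.

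Changes other than C-to-T were bunched. Within 1 kb of another fixed site lay 14 of the 33 sites that were not C-to-T, or 42.4%, against 1.66% of C-to-T sites. With any listed site of either library counted, 16 of 33 (48.5%) and 4 of 302 (1.32%) had a neighbour within 100 bases. The bunching formed 6 clusters, 5 of them pairs, and only 1 pair was made of C-to-T sites alone, C21125702T and C21126416T, 714 bases apart.

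The largest cluster held 9 sites in 558 bases, from 21640671 to 21641229. It comprised 2 C-to-T, 2 G-to-A and 5 other changes, and was described after its values were seen. Coverage there ran from 24 to 53 reads in the pool and from 26 to 68 in pep1-1, and none of the 9 sites had a read with the reference base in either library. The closest pair of the chromosome was T23631298C and A23631299G, neighbouring bases with the same counts: 61 of 61 reads in the pool and 62 of 65 in pep1-1 at each. Without sites within 100 bases of another listed variant, the C-to-T and G-to-A share was 96.2% and the C-to-T share within it to 98.3%.

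Reads with the reference base were rare at the fixed sites, as the rule requires. The change was carried by every read at 297 of 335 sites in the pool (88.7%) and at 305 in pep1-1 (91.0%), and in both libraries at 287. Summed over the sites, 74 of 20973 pool reads had the reference base, or 0.353% (0.281 to 0.443%), and 73 of 19812 pep1-1 reads, or 0.368% (0.293 to 0.463%). At a single site, every read at the median coverage, 64 in the pool and 61 in pep1-1, gives a lower bound of 0.943 and 0.941.

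Summed over sites, reference reads were a smaller share at C-to-T sites than at the others. They made up 0.313% of pool reads at C-to-T sites (0.244 to 0.402%) and 0.861% at the others (0.504 to 1.47%). In pep1-1 the shares were 0.278% (0.212 to 0.366%) and 1.48% (0.978 to 2.23%). Single sites weighed heavily among those that were not C-to-T. T7513953C had 5 of their 13 reference reads in the pool, and T12971098G 5 of their 22 in pep1-1. Reads of 1 site are not independent and the rule bounds their share, so the intervals are too narrow. The difference between kinds of change was not tested. Sites with reference reads recurred: of 38 in the pool and 30 in pep1-1, 20 were the same, which is 52.6% of the first and 66.7% of the second. Sites that were not C-to-T supplied 7 of these 20.

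The lowest allele frequencies in the pool were 0.902 at C37667611T (74 of 82 reads), 0.911 at C43446406T (51 of 56) and 0.921 at T7513953C (58 of 63). In pep1-1 these sites stood at 0.963, 0.949 and 0.951, so all 3 had reference reads in both libraries. The lowest in pep1-1 were 0.907 at T12971098G (49 of 54 reads), 0.917 at C11113092T (55 of 60) and 0.926 at C28166960T (87 of 94), where the pool had 0.973, 1 and 0.986. Just outside the threshold were T47825565A, at 0.889 in the pool and 0.95 in pep1-1, C33802131T at 0.970 and 0.886, and G11113124A at 0.977 and 0.877. Lowering the threshold to 0.8 in both libraries gave 348 sites in place of 335.

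Along the chromosome the fixed sites stayed near 1 in the pool while the pool-only sites did not. The median allele frequency of fixed sites was 1 in each 5 Mb bin in both libraries, as the rule nearly fixes. Pool-only G-to-A sites, whose frequency no rule limited, had bin medians of 0.614, 0.812, 0.842, 0.860, 0.845, 0.863, 0.867, 0.9, 0.913 and 0.709. Over all 198 the median was 0.844 (interquartile range 0.767 to 0.887), and 39 reached 0.9. Pool coverage had a median of 64 reads at fixed sites and 65 at pool-only G-to-A sites. Both lists were held to at most 100 reads, so nothing is read from this likeness.

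**Figure D4:**
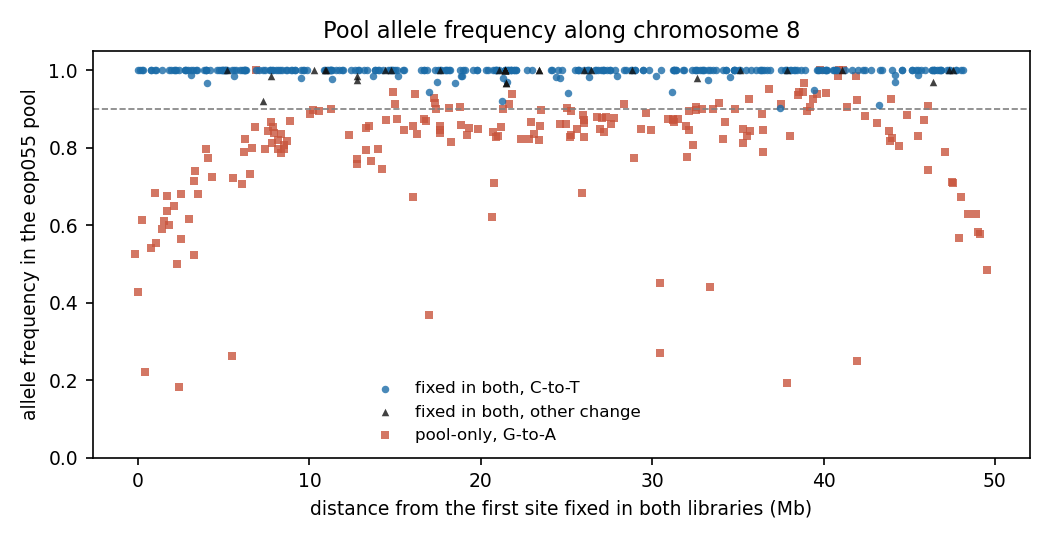
Allele frequency in the eop055 pool (y axis) against the distance from the first fixed site of chromosome 8 (x axis, Mb), for C-to-T sites fixed in both libraries (blue circles), other fixed sites (black triangles) and pool-only G-to-A sites (red squares); the dashed line marks 0.9. The fixed sites lie on a flat line near 1, while bin medians of the red squares run from 0.614 at the start to 0.913 and back to 0.709 at the end.

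The bin medians of the pool-only sites came nearest to 1 between 40 and 45 Mb. There, 3 pool-only G-to-A sites with 10 reads or more were carried by every read: G40043546A (61 reads), G41140691A (70 reads) and G41352686A (62 reads). They spanned 1.31 Mb, which held 5 pool-only G-to-A sites in all, the rest at 0.942 and 0.986. The same span held 10 fixed sites, 9 of them C-to-T, and none of the 10 had a reference read in either library. The fixed sites on each side of G40043546A were C39953716T, 89.8 kb away with 66 pool and 60 pep1-1 reads, and C40106333T, 62.8 kb away with 77 and 82. G41140691A had C40980878T at 160 kb and A41325789C at 185 kb, and G41352686A had A41325789C at 26.9 kb and C41477957T at 125 kb. These 3 pool-only sites and their fixed neighbours were both picked for a high pool allele frequency, so nothing is read from their likeness in it. The 3 differed from those neighbours in the kind of change and in being unlisted in pep1-1. One further pool-only site carried by every read, G7091883A, rested on 2 reads, between C6548365T and C7127498T.

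Sites chosen in 1 library were then looked up in the other, whose values played no part in that choice. With the limits applied to pep1-1 alone, 305 C-to-T sites of chromosome 8 were fixed there, and all 305 were listed in the pool. Of these, 304 stood at 0.9 or more in the pool, or 99.7% (98.2 to 99.9%), and the remaining one, C33654355T, at 0.889 with 36 pool reads, was named after its value was seen. Outside chromosome 8 the share was 103 of 114 (90.4%, 83.5 to 94.5%). For fixed pep1-1 sites of any type the shares were 343 of 349 on chromosome 8 (98.3%, 96.3 to 99.2%) and 481 of 576 elsewhere (83.5%, 80.3 to 86.3%). These differences between chromosome 8 and the rest were not tested.

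In the other direction the kinds of change parted. Of 313 C-to-T sites fixed in the pool on chromosome 8, 306 were fixed in pep1-1 as well (97.8%, 95.5 to 98.9%). Of 52 G-to-A sites fixed in the pool, 11 were (21.2%, 12.2 to 34.0%), and 39 were unlisted in pep1-1. Outside chromosome 8 the pool's fixed G-to-A sites were mostly fixed in pep1-1 too, 218 of 239 (91.2%, 86.9 to 94.2%).

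Site by site, no fixed site of chromosome 8 passed a test for a difference in allele frequency between the libraries. Fisher's exact test on reads, adjusted by Benjamini-Hochberg over all 9753 shared sites, called 0 of the 335, where 3.21% of all shared sites were called. The rule bounds both frequencies, so nothing is read from that count. At an unadjusted p under 0.05 there was 1 site, C21466713T, with 70 of 76 reads in the pool against 81 of 81 in pep1-1 (exact p = 0.0116, adjusted p = 0.197). That is 0.299% of the fixed sites, against 1132 of all 9753 shared sites, or 11.6%. The rule's bounds hold this share down too, so nothing is read from it either.

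Coverage at the fixed sites was of similar size along the chromosome. The rule held it to at most 100 reads, which 754 of the 1299 shared sites of chromosome 8 exceeded in either library. So nothing is read from this evenness about depth at other sites. Bin medians ran from 55 to 70 reads in the pool and from 54 to 65 in pep1-1. The interquartile range over sites was 56 to 71 reads in the pool and 47 to 71 in pep1-1. The pool was deeper at 185 sites and pep1-1 at 139. Across the 335 sites, which share their libraries and are not independent, Pearson's r between the coverages was 0.334 and Spearman's rho 0.229. The rule bounds both coverages, so these values describe the chosen sites only.

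By coverage summed over both libraries, the deepest sites were C46144688T, with 78 pool and 100 pep1-1 reads, C6396937T, with 75 and 98, and C21773114T, with 94 and 76. The thinnest by the same sum were G11183106T, with 8 and 16 reads, C35684141T, with 22 and 8, and A14604348T, with 30 and 9. All 6 were carried by every read. The lowest coverage in a single library was 4 pep1-1 reads, at C47539883T, which had 56 pool reads and was named after its values were seen. Under 20 reads lay 1 site in the pool and 13 in pep1-1, 10 of those 13 being C-to-T, so a change at these sites is weakly measured in pep1-1. Sites that were not C-to-T had a median of 46 reads in each library.

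**Figure D5:**
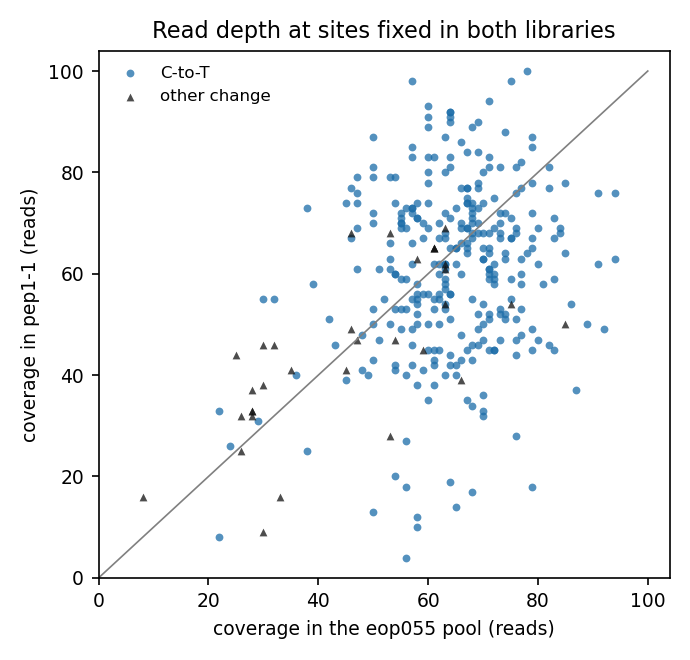
Coverage in pep1-1 (y axis, reads) against coverage in the eop055 pool (x axis, reads) at the 335 sites fixed in both libraries, with C-to-T sites as blue circles, all other changes as black triangles and a grey line of equal coverage. Most circles lie around 65 pool and 62 pep1-1 reads, and a group of circles below 20 reads in pep1-1 has ordinary depth in the pool.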

How the data were processed

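Genomic DNA of 2 libraries was sequenced, and each library's single-base variants were deposited as a list, whose sheet name carries the sample's genotype. The tools named per the submitters' processing notes are Bowtie2, SAMtools and DESeq. Their roles, the build and the filters were not given in the sources used. The sheet names differ by a label, V2, whose meaning is not given, so different processing of the lists was not tested. The deposited allele frequency is a fraction, reads with the changed base over all reads. The deposited headers reads and quality were taken as exchanged: the column of whole numbers holds read counts and the other a variant quality score. Counts over a whole number, taken as the coverage, gave the deposited fraction within 5e-05 at all 14923 and 14029 sites.

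Pool-only sites were unlisted in pep1-1 with any base. Comparisons of lists used a two-sided Fisher's exact test on counts of sites, with Benjamini-Hochberg adjustment over 4 comparisons at 0.05. Spacing, runs and gaps had no test. The site test was tested on simulated data. The sites and comparisons were chosen with earlier results of these data known. Sites were named by rule: both sides of the 5 longest gaps, the 3 closest pairs, the first and last site, the ends of the longest C-to-T run, all G-to-A sites if at most 15, the extremes of allele frequency and coverage (3 each), 3 sites just outside the threshold, and the neighbours of pool-only G-to-A sites carried by every read. Alternatives changed the quality, coverage and allele frequency limits, the pool-only definition, neighbouring variants and the bin width. Python 3.11.15, numpy 2.4.6, pandas 2.3.3, scipy 1.17.1 and matplotlib 3.10.9 were used.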

Additional observations from a re-analysis of the deposited data

How the results depend on the processing

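Of 127 values under alternative settings, 121 were counted as the same, 5 moved and 1 reversed. For a test, the same means the same direction and call. The 121 include the number of fixed sites, which ran from 281 to 381, and the named sites kept, from 31 to 45. Such counts have no direction or call, so 121 does not mean that all these values stayed close. The longest gap ran from 999.6 to 1134 kb. With no coverage maximum the C-to-T and G-to-A share was 84.0%, in place of 93.1%, and the median spacing 75.9 kb, in place of 89.5 kb. Without sites within 100 bases of another listed variant, the share was 96.2% and the C-to-T share within it 98.3%, in place of 96.8%. The longest C-to-T run was 111 sites, in place of 39, with only C-to-T and G-to-A sites in the order, which drops the other interruptions. Against pool-only sites at 0.9 or more, the odds ratio for the C-to-T and G-to-A share reversed to 0.662. Its other alternatives gave 4.02 to 17.2. For the shares and the spacing the cause was not tested. The odds ratio of C-to-T against G-to-A ran from 28.5 to 150 against fixed sites elsewhere, and that of the joint share against other shared sites from 12.1 to 52.9. No paired analysis was possible because there was 1 library a group, which also leaves no replicate to drop. Sites with few pep1-1 reads and the unknown depth of unlisted sites limit what pool-only means.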
